A study of Homo sapiens with 6 samples.

Results

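The 6 conventional actin genes of the human genome were examined in H9 cells, an established line of human embryonic stem cells, after small interfering RNA treatment. They were taken by name from the 62703 genes of the deposited expression table: ACTA1, ACTA2, ACTC1 and ACTG2, the 4 muscle forms, and ACTB and ACTG1, the 2 cytoplasmic forms. RNA sequencing of total RNA covered 3 libraries of cells given a small interfering RNA against NPM1 (siNPM1, whose treatment label names B23, another name of the nucleophosmin protein) and 3 libraries of cells given a control treatment (siControl). The series design describes 3 biological replicates per group. Whether these were separate cultures is not stated, so p-values measure the spread between these samples, which may be technical. The dose of the duplexes and the time after their addition are not given in the sources used here. All values are in TPM, a gene's length-corrected share of a library's transcripts. Every library has the same total, so the sequencing depth is unknown, and levels can be compared between genes.

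The actin genes were chosen by their TPM values in siNPM1 and siControl, which were known when they were proposed. Their levels and differences between the groups are therefore given as a description, with no test. Tests are reported for other genes of the actin machinery, from a fit over the 15768 genes whose mean TPM reached 1 (limma on log2(TPM + 1), Benjamini-Hochberg adjustment, threshold 0.05). Across that fit 4 genes passed, 0.0254% of those tested, and all of them were lower in siNPM1.

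Actin is the protein of thin filaments, and its monomers assemble into the cortex and stress fibres of most cells and into the sarcomeres of muscle. Cytoplasmic beta- and gamma-actin are present in nearly all cell types, and ACTB is often used as a reference gene for RNA measurements. The muscle forms mark skeletal muscle (ACTA1), heart (ACTC1), vascular smooth muscle (ACTA2) and enteric smooth muscle (ACTG2). Actin monomers also hold the coactivators MRTFA and MRTFB in the cytoplasm. When monomers are used up in filaments, these proteins enter the nucleus and, with serum response factor (SRF), activate genes whose promoters carry a CArG box, several actin genes among them.

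The coding sequences of the muscle forms are close relatives, and their first 45 bases are shown because differences such as these let reads be assigned to one gene or another. They were read from GENCODE release 29 (GRCh38). Capitals mark bases that differ from, or have no partner in, the aligned ACTC1 coding sequence, which is therefore all in lower case.
ACTC1: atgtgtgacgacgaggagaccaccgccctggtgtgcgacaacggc
ACTA1: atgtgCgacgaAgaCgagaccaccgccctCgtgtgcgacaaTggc
ACTA2: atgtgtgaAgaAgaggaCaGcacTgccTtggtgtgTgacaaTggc
ACTG2: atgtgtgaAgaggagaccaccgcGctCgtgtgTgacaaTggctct
Over the whole coding sequence, the 6 pairs of muscle forms were identical at 84.6% to 86.1% of aligned bases, and ACTB and ACTG1 at 91.3%. The 8 pairs of a muscle and a cytoplasmic form were identical at 82.2% to 86.0%. The annotated proteins have 377 codons for ACTA1, ACTA2 and ACTC1, 376 for ACTG2 and 375 for the cytoplasmic forms. Of all 50-base stretches in the protein-coding transcripts of each gene, 1.81% of ACTA1, 0% of ACTA2, 0.274% of ACTC1, 0.0719% of ACTG2, 6.66% of ACTB and 2.68% of ACTG1 occurred exactly in a transcript of some other gene. The read length and the counting method are not given in the sources used here.

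The upstream sequences of the actin genes were searched for the CArG box, the SRF site of 10 bases, since this box is known to join several of these genes to one regulator. The 250 bases before each annotated start are printed 5′ to 3′ from RefSeq (GRCh38.p14), on the strand of the gene. Capitals mark an exact CArG box, or one in which the first or the last of its 6 inner bases is free.
ACTA1, chr1:229434095-229434344, minus strand: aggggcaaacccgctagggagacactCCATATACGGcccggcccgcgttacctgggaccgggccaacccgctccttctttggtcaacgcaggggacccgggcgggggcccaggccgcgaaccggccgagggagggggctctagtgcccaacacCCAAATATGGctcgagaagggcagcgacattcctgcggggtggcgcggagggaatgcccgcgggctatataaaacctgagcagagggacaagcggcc
ACTC1, chr15:34795550-34795799, minus strand: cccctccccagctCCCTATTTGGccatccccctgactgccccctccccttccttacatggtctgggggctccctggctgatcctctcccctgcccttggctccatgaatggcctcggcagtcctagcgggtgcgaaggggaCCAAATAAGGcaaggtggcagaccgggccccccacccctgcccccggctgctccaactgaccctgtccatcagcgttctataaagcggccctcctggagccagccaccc
ACTG2, chr2:73892758-73893007, plus strand: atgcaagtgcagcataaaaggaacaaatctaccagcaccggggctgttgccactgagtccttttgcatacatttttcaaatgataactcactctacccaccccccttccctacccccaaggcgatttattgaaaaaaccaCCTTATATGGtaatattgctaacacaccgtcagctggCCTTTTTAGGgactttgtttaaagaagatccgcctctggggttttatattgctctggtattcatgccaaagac
ACTA2, chr10:88952774-88953023, minus strand: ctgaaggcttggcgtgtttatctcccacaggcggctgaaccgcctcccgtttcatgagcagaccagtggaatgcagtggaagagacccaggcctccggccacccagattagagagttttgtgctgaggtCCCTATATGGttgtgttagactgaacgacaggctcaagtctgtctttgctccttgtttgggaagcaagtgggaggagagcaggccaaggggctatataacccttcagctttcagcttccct
ACTG1, chr17:81512800-81513049, minus strand: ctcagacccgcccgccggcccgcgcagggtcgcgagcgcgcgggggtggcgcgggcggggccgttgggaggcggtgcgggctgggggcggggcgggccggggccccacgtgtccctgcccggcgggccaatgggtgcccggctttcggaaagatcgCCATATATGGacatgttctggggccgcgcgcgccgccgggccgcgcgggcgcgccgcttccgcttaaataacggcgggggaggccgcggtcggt
An exact box lay 97 bases before the start of ACTA1, 109 before that of ACTC1, 110 and 73 before that of ACTG2 and 94 before that of ACTG1. Of 35116 windows of this length in the table, 407 (1.16%) held an exact box, and 931 (2.65%) held an exact box or one with a free end base. ACTA1 and ACTC1 had a further box with a free end base, 224 and 237 bases before the start. The printed ACTA2 window had 1 box with a free end base, 121 bases before the start, and 0 exact ones. A window before another annotated start of ACTA2 and windows before 2 further starts of ACTC1 held neither. ACTB was not searched. A match describes letters in these windows and is no evidence that SRF was bound in these cells.

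**Figure D1:**
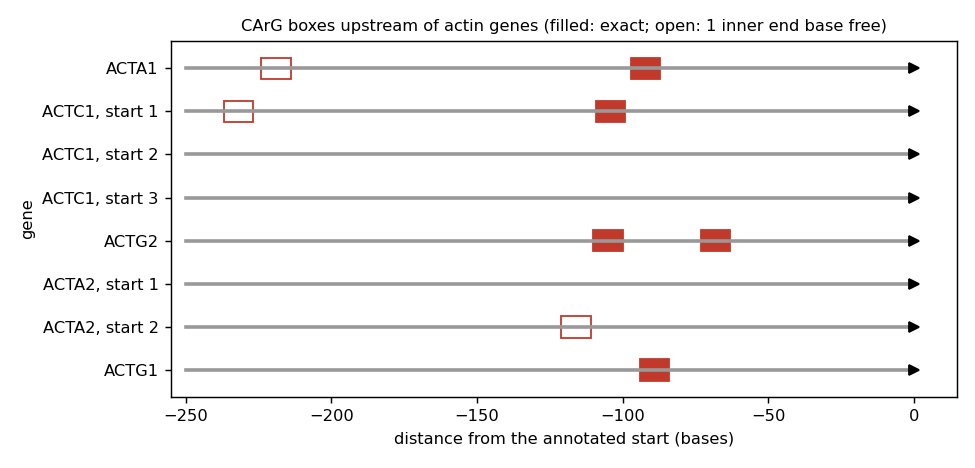
Positions of CArG boxes in the 250 bases before each annotated start of 5 actin genes, with the distance from the start in bases on the horizontal axis and an arrowhead at the start itself. Filled bars are exact boxes and open bars are boxes with a free end base. Exact boxes stand between 73 and 110 bases before the start in ACTA1, ACTC1, ACTG2 and ACTG1.

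The identity of the cells and the knockdown were checked first. All 12 pluripotency markers listed for the check, from POU5F1 and NANOG to L1TD1, stood at 39.3 TPM or more in every library. NPM1 was at 173, 165 and 238 TPM in siNPM1 replicates 1, 2 and 3, against 3109, 2969 and 3132 TPM in siControl replicates 1, 2 and 3, and it fell past the threshold (log2 difference -4.01, adjusted p = 0.000852, limma). The main split among the libraries did not follow the groups, however. On the first principal component (54.4% of the variance) siControl replicate 2 stood at 28.1, near the siNPM1 libraries at 30.4 to 32.2, while siControl replicates 1 and 3 stood at -59.9 and -61.7. Mitochondrially encoded protein transcripts took 17.0% to 19.8% of the total in siNPM1, and 8.86%, 22.3% and 8.82% in siControl replicates 1, 2 and 3. Differences of the actins and counts of the gene lists are therefore given with and without siControl replicate 2. In the fit without it, 24.1% of all genes tested passed as higher and 12.9% as lower, and counts from that fit stand against these shares. Whether the state of that library, or of the other 2, bears on the actin levels or on these counts was not tested. In a bulk sample, fewer cells with a transcript and less transcript per cell cannot be told apart.

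ACTA1, ACTC1 and ACTG2 were lower in siNPM1 than in siControl in every library, while ACTB, ACTG1 and ACTA2 had overlapping groups. The largest difference was in ACTA1, whose mean in siNPM1 was 5.31% of that in siControl, followed by ACTG2 at 19.7% and ACTC1 at 26.0%. ACTG1 and ACTB stood at 63.5% and 64.9%. Over all genes tested, 8.55% were lower in siNPM1 without overlap and 16.2% were higher without overlap. Because the genes were chosen with this contrast known, nothing is read from the 3 of 6 set against that share.

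ACTA1 (ENSG00000143632, GRCh38 chromosome 1, 229431245 to 229434098, minus strand) encodes skeletal muscle alpha-actin. It stood at 0.37, 3.51 and 4.20 TPM in siNPM1 replicates 1, 2 and 3, and at 69.3, 12.5 and 70.5 TPM in siControl replicates 1, 2 and 3. The highest siNPM1 library lay below the lowest siControl library, siControl replicate 2. That replicate lay between the other siControl libraries and siNPM1: siControl replicates 1 and 3 averaged 5.61 times its level, and its level was 4.63 times the siNPM1 mean. The log2(TPM + 1) difference was -3.68 with a standard error of 0.783, and -4.48 with a standard error of 0.598 without siControl replicate 2. Within siNPM1, replicate 1 was the lowest library.

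ACTC1 (ENSG00000159251, chromosome 15, 34788095 to 34795726, minus strand), the actin of heart muscle, stood at 3.01, 3.81 and 3.68 TPM in siNPM1 replicates 1 to 3 and at 17.8, 5.01 and 17.6 TPM in siControl replicates 1 to 3. The siNPM1 libraries were close to one another, and siControl replicate 2 lay nearer to them than to the other siControl libraries. The log2 difference was -1.51 with a standard error of 0.447, and -2.06 with a standard error of 0.132 without that replicate.

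ACTG2 (ENSG00000163017, chromosome 2, 73892314 to 73919865, plus strand), the gamma-actin of enteric smooth muscle, was the lowest of the 3. It stood at 0.06, 1.46 and 1.18 TPM in siNPM1 replicates 1 to 3 and at 7.34, 2.10 and 4.30 TPM in siControl replicates 1 to 3. The groups did not overlap, and siNPM1 replicate 1 was again far below the others. The log2 difference was -1.53 with a standard error of 0.468, and -1.90 with a standard error of 0.434 without siControl replicate 2. At these levels the value depends on the pseudocount, and it was -2.61 with a pseudocount of 0.1. In ACTA1, ACTC1 and ACTG2 alike, siControl replicate 2 lay above every siNPM1 library and below siControl replicates 1 and 3, an order found in 5.36% of the genes tested.

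ACTA2 (ENSG00000107796, chromosome 10, 88935074 to 88991339, minus strand), the actin of vascular smooth muscle, was the member below the minimum of 1 TPM and did not enter the fit. It stood at 0.20, 0.23 and 0.06 TPM in siNPM1 replicates 1 to 3 and at 0.16, 0.32 and 0.09 TPM in siControl replicates 1 to 3. The groups overlapped, with siControl replicate 2 the highest library, and the difference of mean log2(TPM + 1) was -0.03. At such levels a difference between the groups may not be detectable. Its antisense transcript ACTA2-AS1 was listed at 0 in all 6 libraries, and its neighbours FAS and STAMBPL1 at no more than 1.17 and 3.10 TPM.

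The cytoplasmic forms were far more abundant, with ACTB at 628 ± 29.2 times the TPM of ACTC1 in siNPM1 and 304 ± 146 times in siControl (SD, n = 3 each). ACTB (ENSG00000075624, chromosome 7, 5527147 to 5563784, minus strand) had 1929, 2265 and 2386 TPM in siNPM1 replicates 1 to 3 and 3949, 2366 and 3825 TPM in siControl replicates 1 to 3. ACTG1 (ENSG00000184009, chromosome 17, 81509971 to 81523847, minus strand) had 2550, 2035 and 2129 TPM in siNPM1 and 4286, 2031 and 4253 TPM in siControl, in the same order of replicates. For both genes siControl replicates 1 and 3 were high and the remaining 4 libraries were low, so the groups overlapped through siControl replicate 2. The log2 differences were -0.59 for ACTB and -0.58 for ACTG1, with standard errors of 0.221 and 0.302. Without siControl replicate 2 they were -0.83 and -0.94, with standard errors of 0.104 and 0.110. ACTG1 was above ACTB in siNPM1 replicate 1 and in siControl replicates 1 and 3, and below it in the other libraries. The ratio of ACTG1 to ACTB was 1.04 ± 0.246 in siNPM1 and 1.02 ± 0.139 in siControl (SD, n = 3 each).

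**Figure D2:**
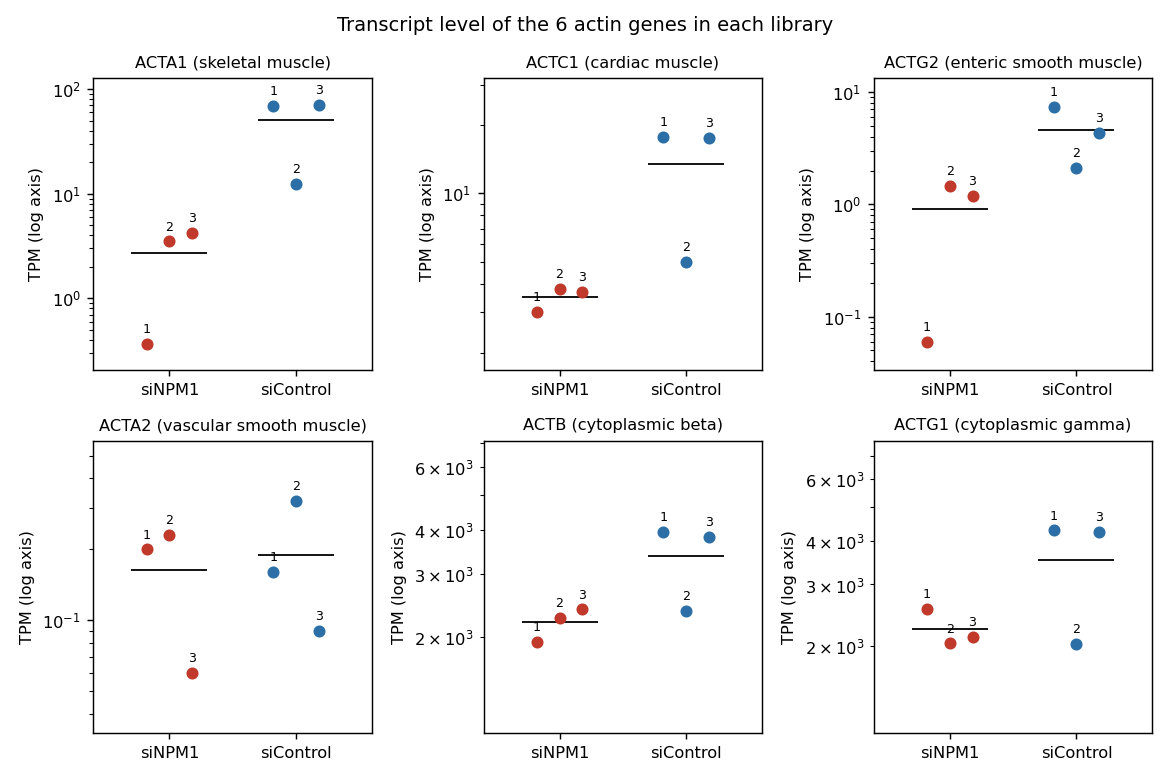
TPM of each actin gene on a log axis, siNPM1 left and siControl right, with 1 numbered point per library and a line at the group mean. In ACTA1, ACTC1 and ACTG2 siControl replicate 2 lies between siNPM1 and the other siControl libraries, and in ACTB and ACTG1 it lies within or just below the siNPM1 range.

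The muscle forms together made up a small part of actin transcripts, and that part was smaller in siNPM1. Their summed level was 3.64, 9.01 and 9.12 TPM in siNPM1 replicates 1 to 3 and 94.6, 19.9 and 92.4 TPM in siControl replicates 1 to 3. As a share of the summed TPM of all 6 genes this was 0.0812%, 0.209% and 0.202% in siNPM1, against 1.14%, 0.450% and 1.13% in siControl. A share within a library does not move with that library's scaling. The groups did not overlap, and siControl replicate 2 again lay between siNPM1 and the other siControl libraries. The mean share was 0.164% ± 0.0718 in siNPM1 and 0.906% ± 0.394 in siControl (SD, n = 3 each). The siControl mean was 1.13% without replicate 2. Summed cytoplasmic actin was 4479, 4300 and 4515 TPM in siNPM1 and 8234, 4397 and 8077 TPM in siControl, and its groups overlapped.

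The make-up of the muscle forms also differed between the groups. ACTA1 held 10.2%, 39.0% and 46.1% of summed muscle actin in siNPM1 replicates 1 to 3, and 73.3%, 62.6% and 76.2% in siControl replicates 1 to 3. ACTC1 held 82.7%, 42.3% and 40.4% in siNPM1, against 18.8%, 25.2% and 19.0% in siControl. ACTA1 was above ACTC1 in all 3 siControl libraries and in siNPM1 replicate 3. ACTC1 was above ACTA1 in siNPM1 replicates 1 and 2, and at replicates 2 and 3 the 2 genes differed by less than 1 TPM.

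**Figure D3:**
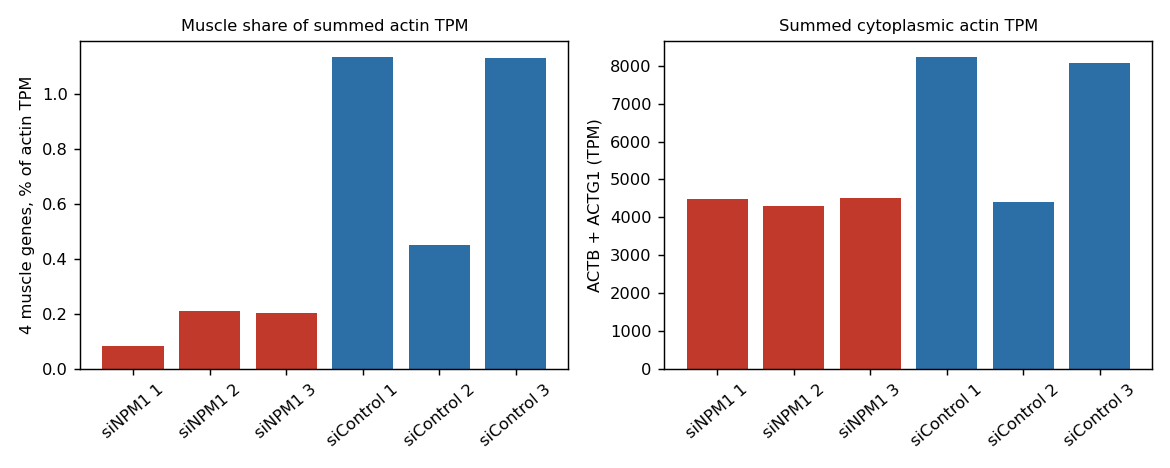
Left, the 4 muscle genes as a percentage of the summed TPM of all 6 actin genes; right, the sum of ACTB and ACTG1 in TPM; 1 bar per library, siNPM1 in red and siControl in blue. The muscle share is lowest in the 3 siNPM1 libraries (0.0812% to 0.209%), while the cytoplasmic sum of siControl replicate 2 (4397 TPM) lies inside the siNPM1 range of 4300 to 4515 TPM.

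Copies of the cytoplasmic genes carried few transcripts. The 32 pseudogenes of ACTB and ACTG1 in the table summed to 5.11 to 5.25 TPM in siNPM1 and 3.70 to 4.26 TPM in siControl, and 12 of them were listed at 0 in every library. ACTG1P25 was the one whose mean reached 1 TPM, at 2.07, 1.33 and 1.90 TPM in siNPM1 and 0.72, 1.88 and 0.51 TPM in siControl. Of 14 POTE genes, some of which carry an actin-like sequence, POTEE, POTEF and POTEI reached that mean, and the highest value in any library was 3.42 TPM, for POTEF. None of these 4 genes passed the threshold (limma, adjusted p from 0.269 to 0.679). Reads of near-identical copies cannot be followed in TPM values, so these levels are uncertain. Adding the pseudogenes to the cytoplasmic sum left its log2 difference at -0.58.

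SRF, the factor that binds the CArG box, was among the 3 genes nearest in pattern to ACTC1, behind HMGCS1 and LINC00540. It was not among the 3 nearest to any other actin. The ranking uses the actin values themselves, and the libraries share the split between siControl replicates 1 and 3 and the rest. A near rank is therefore a description and no evidence of a link to SRF. SRF stood at 15.1, 15.5 and 18.2 TPM in siNPM1 replicates 1 to 3 and at 58.3, 18.2 and 60.6 TPM in siControl replicates 1 to 3. Its lowest siControl library was just above its highest siNPM1 library. It did not pass the threshold (log2 difference -1.26, standard error 0.440, adjusted p = 0.234, limma) and passed as lower without siControl replicate 2 (log2 difference -1.81, adjusted p = 0.00162, limma). For its coactivators the siNPM1 libraries were the higher ones, without overlap, and neither passed (adjusted p = 0.244 and 0.317, limma): MRTFA was at 9.54, 8.58 and 10.3 TPM in siNPM1 and 8.21, 5.81 and 5.87 TPM in siControl, and MRTFB at 11.5, 12.2 and 10.6 TPM in siNPM1 and 10.1, 9.65 and 7.39 TPM in siControl. The muscle coactivator MYOCD stayed below 1 TPM in every library.

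Among 22 genes of the SRF list, which holds SRF, its cofactors and known targets, 21 were tested and 0 passed. There were 8 positive and 13 negative log2 differences, with a median of -0.24 against 0.10 over all genes tested. Without siControl replicate 2, 1 passed as higher and 8 as lower of 21, where 24.1% of all genes tested passed as higher and 12.9% as lower. The lower ones include the matricellular genes CCN1 and CCN2, whose levels also respond to YAP. CCN2 stood at 13.2, 34.6 and 39.96 TPM in siNPM1 and 265, 21.7 and 245 TPM in siControl, so siControl replicate 2 lay within the siNPM1 range. CCN1 stood at 46.3, 106 and 103 TPM in siNPM1 and 815, 33.9 and 764 TPM in siControl, with siControl replicate 2 the lowest of all libraries. MYH9, a heavy chain of non-muscle myosin, was at 92.3, 94.5 and 107 TPM in siNPM1 and 198, 90.5 and 209 TPM in siControl, again with siControl replicate 2 lowest. ACTN1, an actin crosslinker of the same list, was higher without overlap at 93.7, 123 and 126 TPM in siNPM1 and 92.7, 78.6 and 84.7 TPM in siControl, and it did not pass (log2 difference 0.41, adjusted p = 0.237, limma). Its lowest siNPM1 library and highest siControl library differed by little.

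Smooth muscle contractile genes, the usual partners of ACTA2 and ACTG2, showed 4 positive and 10 negative log2 differences over 14 tested genes, with a median of -0.25. Of these 0 passed with all libraries, and without siControl replicate 2, 0 passed as higher and 4 as lower, where 24.1% of all genes tested passed as higher and 12.9% as lower. The lean to lower values depended on siNPM1 replicate 1. Without it 7 of the 14 differences were positive and 7 negative, with a median of -0.03 against 0.09 over all genes tested. TPM2, a tropomyosin that lies along the filament, was at 57.2, 74.2 and 68.3 TPM in siNPM1 and 109, 91.5 and 112 TPM in siControl, with no overlap (log2 difference -0.64, adjusted p = 0.193, limma). MYL9, the regulatory light chain of smooth muscle and non-muscle myosin, was at 10.6, 25.9 and 27.8 TPM in siNPM1 and 81.6, 31.5 and 76.0 TPM in siControl, also with no overlap (log2 difference -1.51, adjusted p = 0.221, limma). TPM2 and MYL9 passed as lower without siControl replicate 2 (adjusted p = 0.0104 and 0.0200, limma). Of the 14 tested genes, 3 were lower and 1, SYNM, was higher without overlap, where 8.55% and 16.2% of all genes tested were. SYNM ran from 1.20 to 2.27 TPM in siNPM1 and from 0.77 to 1.05 TPM in siControl. Its siControl mean was 0.9 TPM, so it entered the fit only through its siNPM1 values and is given as a description. MYH11, too low to be tested, was also higher without overlap, at 0.25 to 1.05 TPM in siNPM1 and 0.12 to 0.22 TPM in siControl. The summed level of the 16 listed genes was 218 to 464 TPM in siNPM1 and 420 to 808 TPM in siControl, so the groups overlapped.

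Markers of striated muscle were uneven. Of 29 sarcomere genes, 18 had a mean below 1 TPM, among them the heart muscle markers MYH6, MYH7 and MYL2, and 4 were listed at 0 in every library. Troponin genes of the same list were detected. TNNI3, the cardiac inhibitory troponin, was at 40.8, 27.6 and 29.8 TPM in siNPM1 and 61.8, 27.4 and 68.8 TPM in siControl. TNNT2, cardiac troponin T, was at 1.6, 2.88 and 2.39 TPM in siNPM1 and 5.47, 2.71 and 7.84 TPM in siControl, and TNNT1, slow skeletal troponin T, at 122, 65.2 and 70.4 TPM in siNPM1 and 71.6, 51.6 and 78.4 TPM in siControl. In all 3 the groups overlapped, and without siControl replicate 2 TNNI3 and TNNT2 passed as lower (adjusted p = 0.0127 and 0.0159, limma) and TNNT1 did not pass (adjusted p = 0.732, limma). Of 18 cardiac and skeletal muscle transcription factors 13 had a mean below 1 TPM, and MYOD1 and MYOG, which define skeletal muscle, were listed at 0 in every library. Among the 11 sarcomere genes tested, 6 log2 differences were positive and 5 negative, with 0 past the threshold, with a median of 0.20, and without siControl replicate 2, 2 passed as higher and 4 as lower (24.1% and 12.9% of all genes tested). MYL7, the atrial myosin light chain, was at 0, 0.67 and 0.20 TPM in siNPM1 and 3.50, 1.75 and 3.50 TPM in siControl (log2 difference -1.60, adjusted p = 0.178, limma), with siControl replicate 2 between the rest as in ACTA1. MYH3, the embryonic myosin heavy chain, was at 1.86, 2.12 and 1.44 TPM in siNPM1 and 0.73, 0.65 and 0.61 TPM in siControl (log2 difference 0.75, adjusted p = 0.216, limma). MYL7 passed as lower and MYH3 as higher without siControl replicate 2 (adjusted p = 0.00670 and 0.0315, limma). The mean of MYL7 in siNPM1 (0.29 TPM) and that of MYH3 in siControl (0.663 TPM) lay below 1 TPM. Both genes thus entered the fit only through the group where they were higher, so their passing is given as a description. Of the 5 transcription factors tested, 2 differences were positive and 3 negative, with a median of -0.40 and 0 past the threshold; without siControl replicate 2 the median was -0.48, and 1 passed as higher and 2 as lower. TBX5 was at 1.43, 0.38 and 0.67 TPM in siNPM1 and 3.27, 3.6 and 2.18 TPM in siControl (adjusted p = 0.212), and PAX7 at 11.1, 7.70 and 7.18 TPM in siNPM1 and 5.30, 6.42 and 5.09 TPM in siControl (adjusted p = 0.243, limma). TBX5, with a mean of 0.827 TPM in siNPM1, likewise entered the fit only through its siControl values. MEF2C, the 1 that passed as higher, had a mean of 0.89 TPM in siControl and entered only through its siNPM1 values. The passing of TBX5 and MEF2C is therefore also given as a description. Summed over their lists, sarcomere genes held 120 to 187 TPM in siNPM1 and 100.3 to 175 TPM in siControl, and mesenchymal cell markers 289 to 565 TPM in siNPM1 and 486 to 544 TPM in siControl. Of the 13 mesenchymal markers 8 had a mean of 1 TPM or more and 2, DCN and LUM, were listed at 0 in every library. THY1 and VIM were the most abundant, with THY1 at 90.4 to 305 TPM in siNPM1 and 364 to 389 TPM in siControl and VIM at 134 to 193 TPM in siNPM1 and 56.0 to 108 TPM in siControl. Of the 8 tested, 4 differences were positive and 4 negative, with 0 past the threshold, and without siControl replicate 2, 2 passed as higher and 0 as lower.

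Among genes that control actin assembly, monomer-binding proteins included the most abundant transcripts. TMSB4X, which encodes the monomer-sequestering thymosin beta 4, was at 2841, 3774 and 3796 TPM in siNPM1 and 6421, 3999.5 and 6363 TPM in siControl. TMSB10, its relative, was at 2591, 3016 and 2841 TPM in siNPM1 and 4143, 3413 and 4225 TPM in siControl. In both genes the groups did not overlap and siControl replicate 2 was the lowest siControl library, and neither passed (log2 differences -0.67 and -0.48, adjusted p = 0.232 and 0.216, limma). Both passed as lower without siControl replicate 2 (adjusted p = 0.00903 and 0.00643, limma). These 2 were named after their values were seen. CAPG, a protein that caps filament ends, was at 38.1, 39.6 and 41.6 TPM in siNPM1 and 95.1, 57.4 and 98.0 TPM in siControl (log2 difference -1.01, adjusted p = 0.179, limma). PFN2, a profilin, was at 146, 131 and 129 TPM in siNPM1 and 169, 193 and 173 TPM in siControl (log2 difference -0.40, adjusted p = 0.214, limma). For PFN2 the siControl libraries were all high, replicate 2 the most. Without that replicate, CAPG and PFN2 passed as lower (adjusted p = 0.00162 and 0.0270, limma). Over this list of 26 tested genes 11 differences were positive and 15 negative, with 0 past the threshold and a median of -0.06. After rescaling without mitochondrial and ribosomal protein genes it was 0.02, where the median of all genes tested rose from 0.10 to 0.19. Without siControl replicate 2, 3 of the 26 passed as higher and 5 as lower (24.1% and 12.9% of all genes tested). With all libraries, 6 of the 26 were higher and 6 lower without overlap, where 16.2% and 8.55% of all genes tested were. The higher ones were CAPZA1, CAPZA2, CORO1C, SSH1, LIMK1 and MICAL1. The summed level of the list was 8338 to 10083 TPM in siNPM1 and 10925 to 13843 TPM in siControl. TMSB4X and TMSB10 together held the larger part of that sum in every library.

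The medians of the Arp2/3 and formin lists were nearer to the median of all genes, 0.10. The 18 genes of the Arp2/3 complex, which starts branched filaments, and of its activators had 10 positive and 8 negative differences with a median of 0.08, and the 18 tested formins, SPIRE and Ena/VASP genes had 14 and 4 with a median of 0.12. In each list 0 passed with all libraries; without siControl replicate 2, 4 passed as higher and 2 as lower in the Arp2/3 list, and 3 as higher and 1 as lower in the formin list (24.1% and 12.9% of all genes tested). Both list medians fell below 0 when libraries were centred on their medians (-0.04 and -0.01), as did that of all genes tested (-0.02). With all libraries, 1 of the 18 Arp2/3 list genes was higher and 5 were lower without overlap. In the formin list 4 of 18 were higher and 1 lower without overlap. The shares over all genes tested were 16.2% higher and 8.55% lower. CYFIP1, a subunit of the WAVE complex, was at 25.3, 35.8 and 34.9 TPM in siNPM1 and 46.5, 42.1 and 51.3 TPM in siControl (log2 difference -0.54, adjusted p = 0.220, limma). CTTN, which encodes cortactin, was at 136, 144 and 149 TPM in siNPM1 and 111, 110 and 124 TPM in siControl (log2 difference 0.31, adjusted p = 0.226, limma). The formin genes DAAM1 and FHOD3 had log2 differences of 0.45 and 0.69 (adjusted p = 0.216 and 0.231, limma), with no overlap in either. All 4 passed in the same direction without siControl replicate 2 (adjusted p from 0.0251 to 0.0480, limma).

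Of 23 tested crosslinkers, tropomyosins and non-muscle myosin genes, 10 had positive and 13 negative differences, and 0 passed; without siControl replicate 2, 4 passed as higher and 6 as lower (24.1% and 12.9% of all genes tested). EZR, which encodes ezrin, a linker of actin to the membrane, was at 178, 180 and 190 TPM in siNPM1 and 106, 134 and 108 TPM in siControl (log2 difference 0.66, adjusted p = 0.173, limma), without overlap, and passed as higher without siControl replicate 2 (adjusted p = 0.00236, limma). The 18 genes for actin folding and modification, chiefly the chaperonin CCT and prefoldin, had a median difference of -0.05 with 0 past the threshold. After the same rescaling it was 0.04, where the median of all genes tested rose from 0.10 to 0.19. Without siControl replicate 2, 2 of these 18 genes passed as higher and 3 as lower. CCT3 and CCT2 had log2 differences of 0.29 and 0.23 (adjusted p = 0.236 and 0.260, limma), and without that replicate CCT3 passed as higher and CCT2 did not (adjusted p = 0.0292 and 0.0564, limma). Of 9 tested actin-related and nuclear actin transport genes, 7 were positive, with a median of 0.26 and 0 past the threshold. Without siControl replicate 2, 4 of the 9 passed as higher and 0 as lower, with a median of 0.32, ACTR5 and XPO6 among the higher ones (adjusted p = 0.0459 and 0.0115, limma). ACTR5, a chromatin-remodelling subunit, was at 7.14, 9.92 and 10.7 TPM in siNPM1 and 5.65, 6.39 and 5.28 TPM in siControl (adjusted p = 0.227), and XPO6, the exporter of nuclear actin, at 46.5, 53.3 and 60.2 TPM in siNPM1 and 27.7, 48.9 and 32.6 TPM in siControl (adjusted p = 0.243, limma).

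Of the markers and neighbours, TDGF1 and POU5F1 had the smallest p among pluripotency genes (log2 differences -0.81 and -0.56, adjusted p = 0.1002 and 0.212), and COL1A1 and VIM among mesenchymal ones (1.04 and 1.03, adjusted p = 0.179 and 0.212, limma). TDGF1 and POU5F1, without siControl replicate 2, passed as lower (adjusted p = 0.00187 and 0.00192, limma) and COL1A1 and VIM as higher (adjusted p = 0.00874 and 0.0293, limma). Of the 12 pluripotency markers 3 passed as higher in that fit, DNMT3B, ZFP42 and L1TD1 (adjusted p from 0.00162 to 0.00693, limma). Another 3 passed as lower, TDGF1, POU5F1 and NANOG. Of the 4 tested neighbours 0 passed as higher and 1, CCSAP, as lower. The shares over all genes tested were 24.1% higher and 12.9% lower. CCSAP and NUP133, which lie beside ACTA1, had adjusted p = 0.250 and 0.793 (limma). CCSAP was at 24.4, 19.5 and 19.5 TPM in siNPM1 and 53.7, 21.0 and 52.5 TPM in siControl, with siControl replicate 2 inside the siNPM1 range, unlike ACTA1.

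Over all lists together, 178 genes other than the actins were tested and 0 passed (limma, threshold 0.05), with 41 of them at an unadjusted p under 0.05 (21 higher and 20 lower), against 3102 of the 15768 genes. Without siControl replicate 2, 64 of them passed, 29 higher and 35 lower, which is 36.0% of the 178, where 37.0% of all genes tested passed. The 178 include the pluripotency, mesenchymal and muscle transcription factor markers and the neighbouring genes. By direction, 16.3% of them passed as higher and 19.7% as lower, where 24.1% of all genes tested passed as higher and 12.9% as lower.

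**Figure D4:**
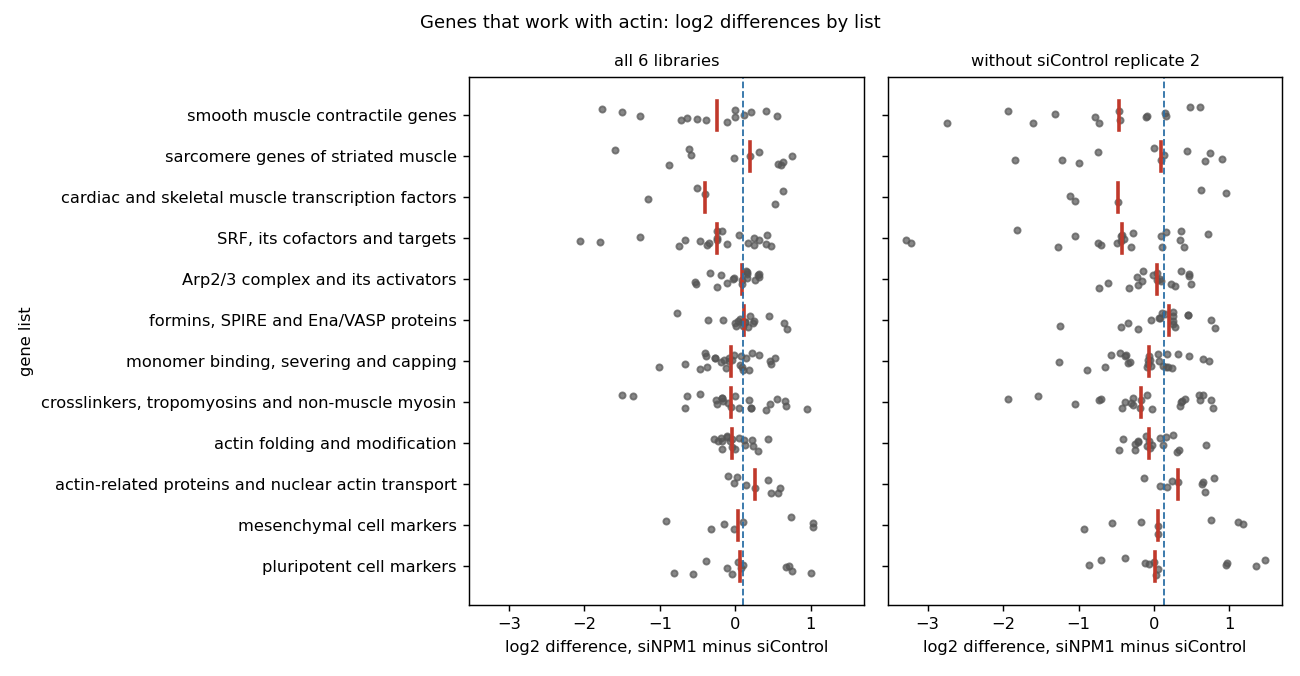
Log2(TPM + 1) differences, siNPM1 minus siControl, of the tested genes in 12 lists, with all 6 libraries on the left and without siControl replicate 2 on the right. Each point is a gene, the red mark is the list's median and the dashed line is the median of all genes tested (0.10 on the left). The medians of the muscle transcription factor, smooth muscle and SRF lists lie farthest left in both panels, at -0.40, -0.25 and -0.24 on the left. Without siNPM1 replicate 1, not shown, they were -0.47, -0.03 and -0.11, against 0.09 over all genes tested.

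For each actin, the genes nearest in pattern were found by the root mean square difference of centred log2(TPM + 1) values over the 6 libraries, among 10231 named genes whose mean reached 5 TPM. The libraries share the split between siControl replicates 1 and 3 and the rest, so a small distance is a description of these 6 libraries. HMGCS1, an enzyme of cholesterol synthesis, LINC00540 and SRF were nearest to ACTC1, at 0.134, 0.143 and 0.152, where ACTC1 itself departs from its mean by a root mean square of 0.935. MYL9, MPP1 and RRM2B were nearest to ACTG2, at 0.195, 0.221 and 0.257, against 0.948 for ACTG2 itself. ACTA1 had no close match: CCN2, MXD1 and NPM1 were nearest, at 0.902, 0.955 and 0.965, against 2.10 for ACTA1 itself. SPAG5, WASF2 and GPR63 were nearest to ACTB at 0.0517 to 0.0560, and BNIP1, KDR and PGM1 to ACTG1 at 0.0438 to 0.0507. ACTA2 was nearly flat on this scale, and its nearest genes, SMO, ATP5MF and ZBTB14, were flat as well. Among the actins, ACTB and ACTG1 were the nearest pair at 0.222, followed by ACTC1 and ACTG2 at 0.393, while ACTA1 was 1.20 or more from every other actin.

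**Figure D5:**
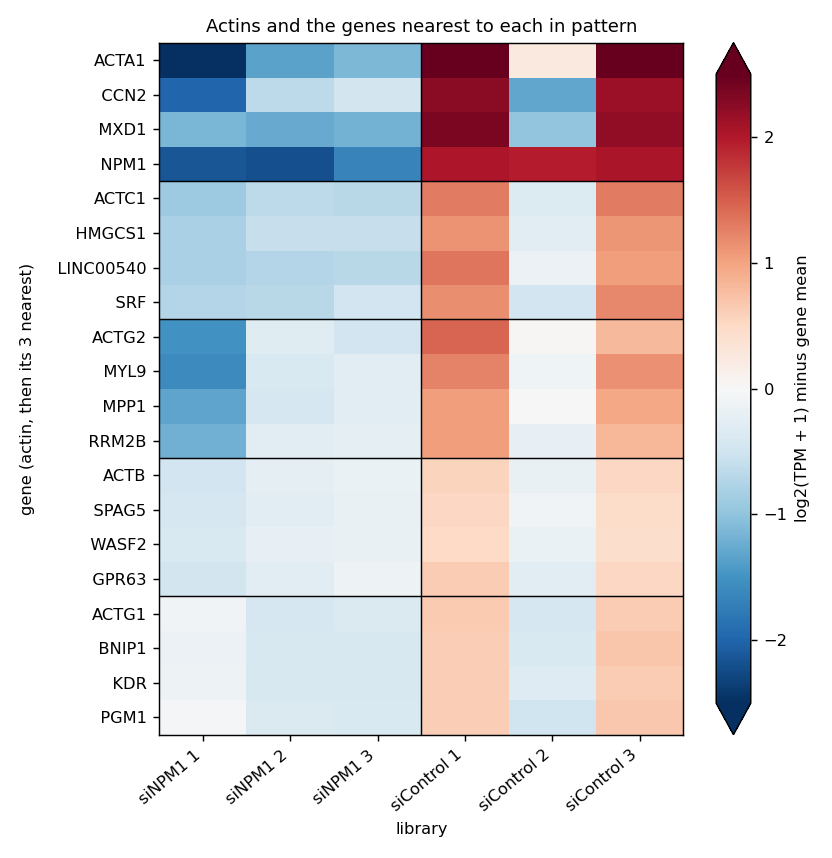
Log2(TPM + 1) minus each gene's mean over the 6 libraries, for 5 actins and the 3 genes nearest to each, with siNPM1 libraries left of the vertical line and siControl libraries right of it. Red is above and blue below the gene's mean. siControl replicate 2 is pale in ACTC1, ACTG2 and ACTA1 and takes the colour of the siNPM1 libraries in ACTG1, while NPM1 separates the groups in all 6 libraries.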

How the data were processed

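The authors deposited 1 table of TPM values per gene and library, made on build GRCh38 per the submitters' processing notes. Aligner, counter, annotation release, strand setting and read length are not given in the sources used here. TPM keeps no depth, so no counting interval is given. Column names gave the sample of each of the 6 libraries; the 2 columns of group means were left out. Values were analysed as log2(TPM + 1) in limma 3.58.1 (R 4.3.3) with a variance trend, two-sided, over genes whose mean TPM reached 1; differences are siNPM1 minus siControl on that scale, which understates changes of low genes. Of the 6 actins, 5 passed this filter. The members and gene lists were chosen with earlier results of these data known. Named genes are the actins, SRF and its coactivators, the 2 genes with the smallest p in each list where none passed, and the 3 nearest in pattern to each actin; others, such as CCN1, MYH9, THY1, the thymosins, the troponins and the marker genes listed at or near 0, were named after their values were seen. Transcripts and positions come from GENCODE release 29, promoters from RefSeq GRCh38.p14, and alignments used Biopython 1.88. The fit was tested on simulated data. Alternatives were a pseudocount of 0.1, other filters, centring, rescaling, a replicate block and leaving out each library.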

Additional observations from a re-analysis of the deposited data

How the results depend on the processing

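The actin differences kept their sign under every setting tried, except for ACTA2, whose difference ran from -0.09 to 0.05 when each library was left out in turn. In the same way the log2 difference ran from -4.48 to -3.07 for ACTA1, -2.06 to -1.24 for ACTC1, -1.90 to -1.15 for ACTG2, -0.83 to -0.46 for ACTB and -0.94 to -0.40 for ACTG1. The difference of the muscle share ran from -0.969 to -0.627 percentage points. A pseudocount of 0.1 gave -2.61 for ACTG2 in place of -1.53, and low values weigh more at a smaller pseudocount. Neither ACTG2 nor ACTA2 has a value at a mean of at least 5 TPM. Centring each library on its median moved the median difference of all genes from 0.10 to -0.02, and the difference of ACTB from -0.59 to -0.72. The count of genes past the threshold, 4, was 1 without a filter on low values and 2 at a mean of at least 5 TPM. It ran from 1 to 5833 when each library was left out, the highest without siControl replicate 2, while 11 passed without siNPM1 replicate 1. Past-threshold genes in the lists ran from 0 to 64, again highest without siControl replicate 2. With the replicate number as a block, 1 gene passed in place of 4. Deviations of same-numbered libraries from their group means correlated at 0.0652, 0.0814 and -0.0383 for numbers 1, 2 and 3. siNPM1 replicate 1 and siControl replicate 3 gave 0.0641, so these correlations cannot tell whether the numbers pair the libraries. The actin differences are the same with the block by construction. With 3 libraries a group and depth unknown, differences among transcripts below 1 TPM, such as ACTA2, were not resolvable.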
